A study of Mus musculus with 9 samples.

Results

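Tumour-initiating cell markers are genes whose products are used to pick out the cells of a tumour that can start a new one. The 10 markers described are Dclk1, Cd44, Cd24a, Alcam, Prom1, Met, Cxcr4, Aldh1a1, Aldh1a3 and Abcg2, and their members on the array are all probe sets that the platform annotation gives to 1 of these genes alone. These are 30 of the 45037 probe sets in the table, with 9 for Dclk1, 5 for Alcam, 4 for Cd44, 3 each for Cd24a and Aldh1a3, 2 for Met and 1 each for Prom1, Cxcr4, Aldh1a1 and Abcg2. No probe set annotated to several genes holds a marker. For each marker, probe sets were taken by gene name and not by value, but the markers were chosen with earlier results of these data known.

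RNA came from 170#3, a mouse pancreatic cancer cell line of mixed C57BL6, FVB and 129Sv background, kept in monolayer in DMEM with 10% serum. The first group of 3 arrays held cells stably transfected with beta-catenin, the next 3 held cells stably transfected with ICAT, and the last 3 held control cells of the same line. The labels call the 3 samples of a group biological and independent. They do not say whether these came from separate transfections, from clones or from pools, nor which vector, promoter or form of beta-catenin was used, so a p-value reflects nothing beyond the spread among these samples. All values are deposited log2 expression values, so a difference of 1 is a doubling.

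Beta-catenin is the coactivator that canonical Wnt signalling stabilises, and in the nucleus it binds TCF/LEF factors on DNA. ICAT, the product of Ctnnbip1, occupies beta-catenin so that TCF factors cannot bind to it. Dclk1 encodes a kinase with doublecortin domains that bind microtubules, and it marks tuft cells of the gut and a rare cell population in mouse pancreas and pancreatic tumours. The other markers are surface proteins used to sort cells (Cd44, Cd24a, Alcam, Prom1), receptors (Met, Cxcr4), the aldehyde dehydrogenases behind the enzyme assay used to sort such cells, and the efflux pump Abcg2 behind the dye exclusion assay.

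Dclk1 lies on the plus strand of mouse chromosome 3, at chr3:55242303-55539068 on GRCm38.p6, and the RefSeq promoter table holds 2 transcription starts for it, 219364 bases apart. The DNA before each start is shown because Dclk1 had the largest differences of the markers between groups and because beta-catenin acts through TCF/LEF factors. The core of the TCF/LEF motif, CTTTG followed by any pair of the letters A and T, was searched on both strands, and a match is in capitals. The upstream stretch is chr3:55242114-55242302 and ends at the base before the gene's annotated start, and the downstream stretch is chr3:55461478-55461727, both on the plus strand, 5′ to 3′.
Dclk1 upstream start: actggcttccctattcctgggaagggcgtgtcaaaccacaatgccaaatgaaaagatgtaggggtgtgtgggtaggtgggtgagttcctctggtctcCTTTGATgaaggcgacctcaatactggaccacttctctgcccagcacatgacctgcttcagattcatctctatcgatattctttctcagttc
Dclk1 downstream start: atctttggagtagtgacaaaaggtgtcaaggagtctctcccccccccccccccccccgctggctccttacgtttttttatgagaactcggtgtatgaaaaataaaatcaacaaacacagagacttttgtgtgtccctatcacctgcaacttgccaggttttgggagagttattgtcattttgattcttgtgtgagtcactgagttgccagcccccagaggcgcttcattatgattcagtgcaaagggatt
The upstream stretch held 1 match, CTTTGAT, which begins at position -153 relative to the transcription start at 55242364. The downstream stretch, before the start at 55461728, held none. Windows of 300 bases, 250 before and 50 after a start, were available for 8 of the 10 markers, with none for Cd24a and Aldh1a3. A core match was found in 2 of these 13 windows, those of the upstream Dclk1 start and of 1 Aldh1a1 start, and in 16.9 percent of 32851 windows of all genes. A match is a run of letters and not a measured binding site, and the arrays give no value for either promoter. The files do not say which Dclk1 transcript form each probe set detects.

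Dclk1 was higher in beta-catenin cells than in ICAT or control cells on most of its probe sets, and higher in ICAT cells than in control cells on the brighter ones. Its brightest probe set, 1436659_at, read 10.03, 10.10 and 10.08 in beta-catenin cells, 7.44, 6.76 and 6.93 in ICAT cells, and 5.41, 5.83 and 5.64 in control cells. The 3 groups did not overlap. All probe sets that reached 5 on at least 3 of the 9 arrays were tested in limma, and one was called where its p, adjusted by Benjamini-Hochberg over all of them, was under 0.05. Beta-catenin cells exceeded control cells by 4.44 ± 0.153 (SE), a 21.7-fold difference (limma, adjusted p = 3.53e-09), which ranked 20 by size among the 33545 probe sets tested. ICAT cells exceeded control cells by 1.41, or 2.66-fold (adjusted p = 4.24e-05). Beta-catenin cells exceeded ICAT cells by 3.03, or 8.16-fold (adjusted p = 9.97e-08). The spread between ICAT arrays was the widest of the 3 groups on this probe set, with SDs of 0.0395 in beta-catenin cells, 0.355 in ICAT cells and 0.210 in control cells (n = 3 each).

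Of the other 8 Dclk1 probe sets, 3 showed the same order of groups. Probe set 1424271_at read 9.66, 9.74 and 9.83 in beta-catenin cells, 7.15, 6.41 and 6.91 in ICAT cells, and 5.82, 6.02 and 5.99 in control cells. Probe set 1451289_at read 9.60, 9.60 and 9.61 in beta-catenin cells, 6.77, 6.33 and 6.11 in ICAT cells, and 4.70, 4.90 and 4.53 in control cells. Probe set 1424270_at read 8.50, 8.29 and 8.55 in beta-catenin cells, 5.85, 5.24 and 5.06 in ICAT cells, and 4.77, 4.39 and 4.83 in control cells. On each of these every beta-catenin array lay above every ICAT array, and every ICAT array above every control array. Values under 5, the limit used to choose probe sets for testing, were set to 5 for a fold where the group's mean lay under it, which makes the fold a lower bound. Beta-catenin cells exceeded control cells 13.9-fold on 1424271_at (adjusted p = 9.13e-09), at least 24.3-fold on 1451289_at (adjusted p = 8.11e-10) and at least 10.9-fold on 1424270_at (adjusted p = 3.88e-08). ICAT cells exceeded control cells 1.84-fold on 1424271_at (adjusted p = 9.03e-04), at least 2.65-fold on 1451289_at (adjusted p = 7.22e-06) and at least 1.30-fold on 1424270_at (adjusted p = 0.00969). Beta-catenin cells exceeded ICAT cells 7.57-fold, 9.19-fold and 8.35-fold on the same probe sets.

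The remaining 5 Dclk1 probe sets were dim in all groups, and 3 of them read higher in beta-catenin cells, 2 of these favoured by the filter. Probe set 1446190_at read 5.63, 6.09 and 5.71 in beta-catenin cells, 5.23, 5.43 and 4.79 in ICAT cells, and 4.97, 4.89 and 5.40 in control cells, a 1.66-fold difference of beta-catenin from control cells (adjusted p = 0.00864). Probe set 1450863_a_at read 5.21, 5.65 and 5.70 in beta-catenin cells, 4.56, 4.36 and 4.26 in ICAT cells, and 4.34, 4.17 and 4.26 in control cells. Probe set 1435940_at read 5.25, 5.10 and 5.45 in beta-catenin cells, 4.97, 4.83 and 4.49 in ICAT cells, and 4.54, 4.55 and 4.53 in control cells. The last 2 reached 5 on the beta-catenin arrays alone and so passed the filter through the group where they were high. Their differences of beta-catenin from control cells, 1.27 (at least 1.44-fold) and 0.73 (at least 1.2-fold), are given as a description, since the filter favoured them. In ICAT against control cells none of these 3 passed the test, with differences of 0.07, 0.14 and 0.22 (adjusted p = 0.833, 0.474 and 0.200). Probe set 1423125_at lay at 5.08, 5.12 and 5.12 on average in beta-catenin, ICAT and control cells and passed no test, with a 95% interval of -0.28 to 0.20 for beta-catenin minus control cells. Probe set 1451917_a_at stayed under 5 on all 9 arrays, 4.80 at most, and was not tested. Leaving aside the 2 that passed the filter through beta-catenin arrays alone, 5 of 6 tested Dclk1 probe sets were higher in beta-catenin than in control cells, 4 of 6 in ICAT than in control cells, and 5 of 6 in beta-catenin than in ICAT cells. Over all tested probe sets 16, 15 and 19.5 percent were called higher in these comparisons. The 6 Dclk1 probe sets read 1 gene on the same arrays and are not separate measurements. Without ICAT replicate 3 the difference of 1435940_at between ICAT and control cells was called (adjusted p = 0.0174). All arrays of both groups lay under 5 on that probe set, where values have no sure order. Without beta-catenin replicate 2 the difference of 1446190_at between beta-catenin and ICAT cells was not called (adjusted p = 0.0573).

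**Figure D1:**
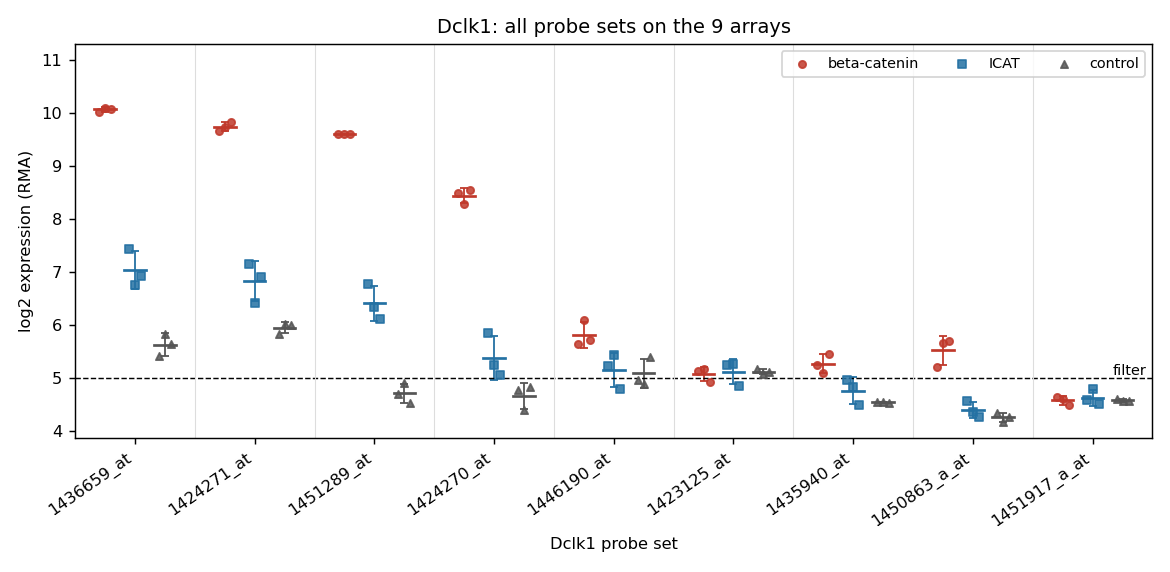
Log2 expression of the 9 Dclk1 probe sets on each of the 9 arrays, with points for arrays, lines for group means, bars for the SD (n = 3), a dashed line at the limit of 5, and beta-catenin, ICAT and control cells in that order within each probe set. Beta-catenin arrays lay above ICAT arrays and ICAT arrays above control arrays on 4 probe sets, while 1423125_at and 1451917_a_at showed no such order.

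By their brightest probe sets, the tested doublecortin relatives of Dclk1 did not pass the test in any comparison. Of 4 genes on the array (Dcx, Dclk2, Dclk3, Dcdc2a) 3 were tested by limma, with 0 called and 0 under an unadjusted p of 0.05 in each comparison. Over all genes 33.1 percent were called in beta-catenin against control, 35.3 percent in ICAT against control and 38.5 percent in beta-catenin against ICAT cells. Dcx, Dclk2 and Dcdc2a have further probe sets, which are not described here. Dcx, the neuronal microtubule-binding protein the family is named for, averaged 5.56 in beta-catenin cells, 5.54 in ICAT cells and 5.65 in control cells. Dclk2, the closest relative with a kinase domain, averaged 6.80 in beta-catenin cells, 6.86 in ICAT cells and 6.92 in control cells.

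Tuft cell markers showed 0 calls among 11 tested genes in beta-catenin against control cells (limma; 0 at an unadjusted p under 0.05), where 33.1 percent of all genes were called. Their summed level, the log2 of the summed linear values of 14 genes, ranged over 10.08 to 10.16 in beta-catenin arrays, 10.07 to 10.27 in ICAT arrays and 10.09 to 10.22 in control arrays. Pou2f3, the transcription factor that specifies tuft cells, averaged 7.77 in beta-catenin cells, 7.85 in ICAT cells and 7.83 in control cells (adjusted p = 0.752 for beta-catenin and 0.922 for ICAT against control). Trpm5, the cation channel of taste and tuft cells, averaged 5.60 in beta-catenin cells, 5.58 in ICAT cells and 5.71 in control cells (adjusted p = 0.345 and 0.251). In ICAT against control cells 1 of the 11 tuft markers was called, beside 35.3 percent of all genes. It was Alox5ap, the partner protein of 5-lipoxygenase, at 5.49 ± 0.0831 in ICAT cells and 5.24 ± 0.0197 in control cells (SD, n = 3 each; adjusted p = 0.0218). That call was lost when any 1 control array was left out.

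The genes whose profile over the 9 arrays was most like that of Dclk1 1436659_at were found by the root mean square difference of centred log2 values, over 15234 other genes with 1 probe set each. They were Thbs1, encoding the matrix protein thrombospondin 1, at a difference of 0.206, the chemokine gene Cxcl12 at 0.242, Pwwp3b at 0.262, Tgfbi, encoding a secreted matrix protein, at 0.265, and Nrep at 0.273. Pearson's r with Dclk1 over the same 9 arrays lay between 0.990 and 0.996, which describes 3 groups of arrays that share their normalization and is given without a test. Thbs1 averaged 13.30 ± 0.0862 in beta-catenin cells, 10.56 ± 0.522 in ICAT cells and 9.17 ± 0.0443 in control cells (SD, n = 3 each). The Tgfbi and Nrep probe sets used here, 1456250_x_at and 1436736_x_at, have a suffix that marks probes that may also bind other transcripts. Other Tgfbi probe sets were called higher in both groups against control. A second Nrep probe set, 1450839_at, was called in beta-catenin cells but not in ICAT cells against control (difference 0.28, adjusted p = 0.144). Its beta-catenin difference was 2.97, beside 4.92 on 1436736_x_at, so the likeness of Nrep rests on the latter.

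Among the surface proteins, Cd24a was higher in both transfected groups and Alcam lower in both, while Cd44 fell in beta-catenin cells. Cd24a encodes a small glycosylphosphatidylinositol-anchored mucin-type glycoprotein. Its brightest probe set, 1448182_a_at, read 12.41, 12.39 and 12.34 in beta-catenin cells, 11.94, 11.84 and 11.95 in ICAT cells, and 11.02, 11.10 and 11.07 in control cells. Groups did not overlap, and ICAT cells lay between the others. Beta-catenin cells exceeded control cells 2.50-fold (adjusted p = 4.44e-08) and ICAT cells exceeded control cells 1.79-fold (adjusted p = 3.72e-06). Beta-catenin cells exceeded ICAT cells by 0.48, or 1.39-fold (adjusted p = 1.50e-04). The other 2 Cd24a probe sets were also called higher against control in both groups, 2.28-fold and 2.14-fold in beta-catenin cells and 1.56-fold and 1.67-fold in ICAT cells. For the second of them, 1437502_x_at, beta-catenin and ICAT arrays overlapped and that difference of 0.35 did not pass (adjusted p = 0.0699). The suffix of this probe set marks probes that may also bind other transcripts.

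Alcam encodes activated leukocyte cell adhesion molecule, an immunoglobulin-type adhesion protein also called CD166. Its brightest probe set, 1426301_at, read 8.78, 8.78 and 9.03 in beta-catenin cells, 9.76, 9.67 and 9.66 in ICAT cells, and 10.11, 10.27 and 10.15 in control cells. Every beta-catenin array lay below every ICAT array, and every ICAT array below every control array. Against control, Alcam fell 2.48-fold in the beta-catenin group (adjusted p = 3.88e-07) and 1.39-fold in ICAT cells (adjusted p = 0.00113), and beta-catenin cells lay 1.78-fold below ICAT cells (adjusted p = 1.77e-05). Probe sets 1426300_at, 1437467_at and 1437466_at fell too, by 2.68-fold to 3.02-fold in beta-catenin and 1.40-fold to 1.53-fold in ICAT cells against control. The dim 1443086_at passed the filter only through the control arrays, where it was highest, and its values are given as a description. It read 4.66, 4.61 and 4.74 in beta-catenin cells, 5.04, 4.72 and 4.99 in ICAT cells, and 5.12, 6.06 and 5.61 in control cells. Its mean was at least 1.51-fold lower in beta-catenin cells and at least 1.5-fold lower in ICAT cells than in control cells. The fit called both, but the filter favoured these differences, and the ICAT call was lost without ICAT replicate 2. Beta-catenin and ICAT cells did not differ by the test on that probe set (difference -0.24, 95% interval -0.65 to 0.16).

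Cd44 encodes the main receptor for hyaluronan. Its brightest probe set, 1434376_at, read 11.58, 11.67 and 11.80 in beta-catenin cells, 12.16, 12.34 and 12.26 in ICAT cells, and 12.32, 12.40 and 12.35 in control cells. Probe set 1423760_at read 11.56, 11.62 and 11.75 in beta-catenin cells, 12.09, 12.23 and 12.22 in ICAT cells, and 12.32, 12.35 and 12.34 in control cells. Probe set 1452483_a_at read 8.78, 8.90 and 9.09 in beta-catenin cells, 9.18, 9.37 and 9.48 in ICAT cells, and 9.93, 9.75 and 9.85 in control cells. All 3 were lower in beta-catenin cells than in both other groups, with no overlap. Against control cells they were 1.59-fold, 1.62-fold and 1.89-fold lower in beta-catenin cells (adjusted p = 4.44e-05, 1.96e-05 and 2.42e-05). Against ICAT cells they were 1.49-fold, 1.45-fold and 1.34-fold lower. In ICAT against control cells the probe sets disagreed, since 1452483_a_at was 1.41-fold lower (adjusted p = 0.00231) while the others differed by -0.10 (95% interval -0.27 to 0.07, adjusted p = 0.391) and -0.16 (adjusted p = 0.127). The suffix of 1452483_a_at marks probes shared by several transcripts of 1 gene. The fourth Cd44 probe set, 1443265_at, stayed under 5 on all arrays and was not tested.

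Prom1, encoding the membrane protein prominin 1 or CD133, was dim and passed no test. It read 5.89, 5.61 and 5.67 in beta-catenin cells, 5.70, 5.65 and 5.52 in ICAT cells, and 5.57, 5.67 and 5.78 in control cells, and the groups overlapped. The 95% interval was -0.15 to 0.25 for beta-catenin minus control cells, -0.25 to 0.15 for ICAT minus control cells and -0.10 to 0.30 for beta-catenin minus ICAT cells.

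Of the receptors, Met was lower in both transfected groups and Cxcr4 was not measured above the limit. Met encodes the receptor tyrosine kinase for hepatocyte growth factor. Its brighter probe set, 1434447_at, read 11.17, 11.20 and 11.34 in beta-catenin cells, 11.38, 11.51 and 11.63 in ICAT cells, and 11.91, 11.97 and 11.89 in control cells. Both transfected groups lay below control cells without overlap, 1.61-fold lower in beta-catenin cells (adjusted p = 4.56e-05) and 1.33-fold lower in ICAT cells (adjusted p = 0.00200). Beta-catenin cells were 1.21-fold below ICAT cells (adjusted p = 0.0195), a call that was lost without beta-catenin replicate 1 or 2 and with the arrays shifted to 1 median. Probe set 1422990_at read 6.15, 6.25 and 6.11 in beta-catenin cells, 6.15, 6.41 and 6.25 in ICAT cells, and 6.66, 6.38 and 6.89 in control cells. It was 1.39-fold lower in beta-catenin cells (adjusted p = 0.00945), while the 1.30-fold lower value in ICAT cells (adjusted p = 0.0302) had overlapping arrays. Leaving out control replicate 1 or 3 or ICAT replicate 1 or 3, or fitting the 6 arrays alone, ended that ICAT call. Cxcr4, the receptor for the chemokine Cxcl12, read 4.22, 4.23 and 4.06 in beta-catenin cells, 4.07, 4.14 and 4.25 in ICAT cells, and 4.14, 4.03 and 4.05 in control cells. All of these lay under the limit of 5, where values have no sure order.

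The aldehyde dehydrogenases among the markers oxidise retinaldehyde to retinoic acid. Aldh1a3 probe set 1427395_a_at read 5.56, 5.69 and 5.28 in beta-catenin cells, 5.48, 5.78 and 5.42 in ICAT cells, and 5.56, 5.60 and 5.59 in control cells. Probe set 1417642_at read 5.30, 5.36 and 5.04 in beta-catenin cells, 5.32, 4.94 and 4.89 in ICAT cells, and 5.17, 5.32 and 4.96 in control cells. The groups overlapped on both, and neither passed in any comparison (adjusted p = 0.333 at the lowest). The third Aldh1a3 probe set, 1448789_at, lay under 5 on all arrays. Aldh1a1 lay under 5 on all arrays too, at 3.98, 4.02 and 3.98 in beta-catenin cells, 4.24, 4.34 and 4.59 in ICAT cells, and 4.07, 3.71 and 3.80 in control cells. In a fit with no filter its difference of ICAT from control cells, 0.53, passed (adjusted p = 0.00275), as did that of beta-catenin from ICAT cells, -0.40 (adjusted p = 0.0142).

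Abcg2, an ATP-driven pump for drugs and dyes, was higher in beta-catenin cells alone. Its probe set read 9.86, 9.92 and 9.94 in beta-catenin cells, 8.83, 8.90 and 9.22 in ICAT cells, and 8.93, 8.84 and 8.95 in control cells. Every beta-catenin array lay above all others, and ICAT and control arrays overlapped. Beta-catenin cells exceeded control cells by 1.0 ± 0.0943 (SE; adjusted p = 8.70e-06) and ICAT cells by 0.92, or 1.90-fold (adjusted p = 1.99e-05). ICAT minus control cells gave 0.07 (95% interval -0.13 to 0.28, adjusted p = 0.627).

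**Figure D2:**
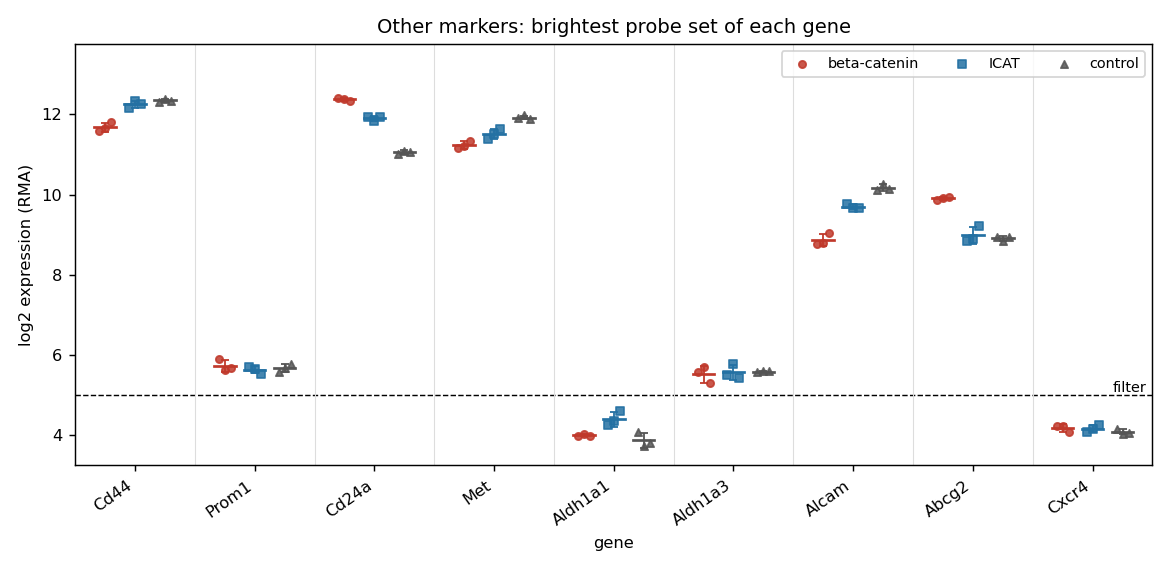
Log2 expression of the brightest probe set of each of the other 9 markers on each array, with points for arrays, lines for group means, bars for the SD (n = 3), a dashed line at the limit of 5, and beta-catenin, ICAT and control cells in that order. Beta-catenin arrays were highest for Cd24a and Abcg2 and lowest for Cd44, Alcam and Met, and Aldh1a1 and Cxcr4 lay under the limit of 5 on all arrays.

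By count, 21 of the 25 tested marker probe sets were called in beta-catenin against control cells, 11 higher and 10 lower, where 29.7 percent of all tested probe sets were called, 16 percent higher and 13.7 percent lower. In ICAT against control cells 15 of 25 were called, 7 higher and 8 lower, against 31.6 percent of all, 15 percent higher and 16.6 percent lower. In beta-catenin against ICAT cells 18 of 25 were called, 10 higher and 8 lower, against 34.8 percent of all, 19.5 percent higher and 15.3 percent lower. Probe sets of 1 gene are not separate measurements, and with the brightest probe set per gene the counts were 6, 4 and 6 of 8 tested genes, where 33.1, 35.3 and 38.5 percent of all genes were called. The 6 genes of the comparison of beta-catenin with control cells were Dclk1, Cd24a and Abcg2, which were higher, and Alcam, Met and Cd44, which were lower. Over all genes 18.7 percent were called higher and 14.4 percent lower there, 17.9 and 17.5 percent in ICAT against control cells, and 21.6 and 16.8 percent in beta-catenin against ICAT cells. Arrays of the groups compared did not overlap for 21, 15 and 18 marker probe sets, against 49.1, 42.3 and 44 percent of all tested probe sets, and for 6, 4 and 6 marker genes, against 54.1, 46.2 and 47.6 percent of all genes. With no filter 21, 16 and 19 of the 30 marker probe sets were called, against 22.1, 23.1 and 26 percent of all. These counts include 3 probe sets, 2 of Dclk1 and 1 of Alcam, that passed the filter only through the group where they were high, and without them 18, 14 and 16 of 22 were called. Of the tested probe sets 8 reached 5 on fewer than 3 arrays of at least 1 group, and among the 17 at 5 or more on all arrays 15, 12 and 13 were called. The median size of a difference over the 25 probe sets was 1.0 for beta-catenin against control cells, 0.48 for ICAT against control cells and 0.55 for beta-catenin against ICAT cells, beside 0.143, 0.140 and 0.156 over all tested probe sets. The 25 include 8 probe sets of Dclk1 and 5 of Alcam, and the 3 favoured by the filter. These are therefore not medians over genes, and genes with many probe sets weigh most in them. The signed medians of the 25 were 0.05, -0.02 and 0.10, since the markers moved both ways. The comparisons with control share the same 3 control arrays. Because the markers were chosen with earlier results of these data known, the counts describe them and do not test them as a set.

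**Figure D3:**
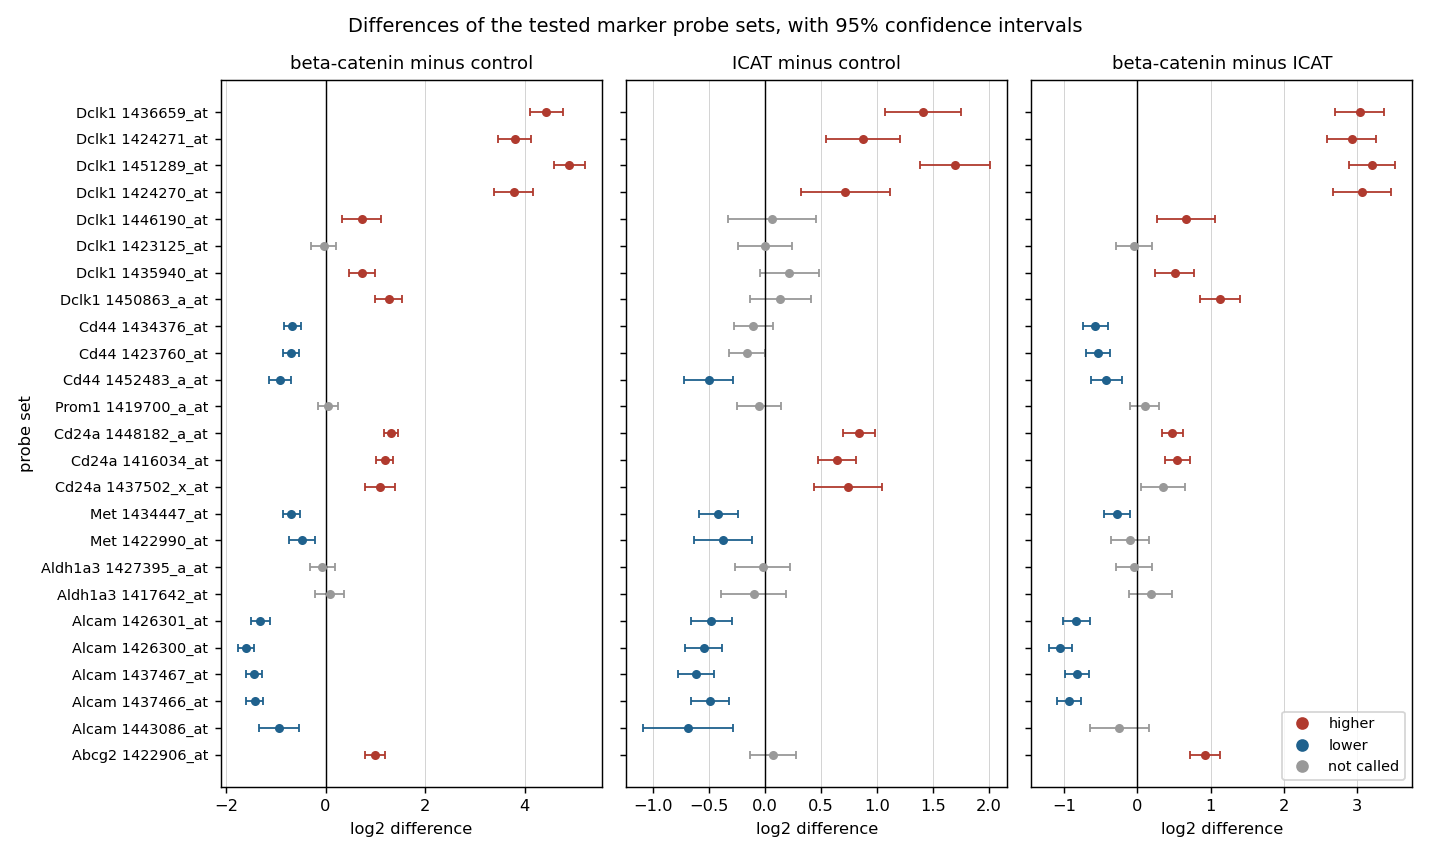
Log2 difference with its 95% interval for each tested marker probe set, for beta-catenin minus control, ICAT minus control and beta-catenin minus ICAT cells, each on its own horizontal scale and coloured by call. The Dclk1 differences of beta-catenin from control cells reached 4.90, and the Alcam differences reached -1.59.

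Ligands and partners of the markers were followed as a list of 15 genes, of which 14 were on the array and tested. In beta-catenin against control cells 4 rose and 1 fell, with a median difference of 0.01 (-0.03 over all genes), a share near the 33.1 percent of all genes called. In ICAT against control cells 3 rose and 2 fell, with a median of -0.03 (-0.01 over all genes), a share near the 35.3 percent of all genes called. Cxcl12, the ligand of Cxcr4, averaged 11.87 ± 0.0651 in beta-catenin cells, 8.95 ± 0.792 in ICAT cells and 7.41 ± 0.00959 in control cells (SD, n = 3 each), which was 22.1-fold (adjusted p = 3.16e-07) and 2.92-fold (adjusted p = 0.00129) above control. Its probe set 1417574_at was called in beta-catenin cells but not in ICAT cells against control (difference 0.64, adjusted p = 0.189), and 1439084_at was not called in any comparison. Selp, encoding P-selectin, which binds Cd24 carbohydrate, averaged 11.23 ± 0.0825 in beta-catenin cells, 7.68 ± 0.452 in ICAT cells and 7.69 ± 0.106 in control cells, an 11.6-fold rise in beta-catenin cells (adjusted p = 4.30e-08). Siglecg, encoding a sialic acid-binding receptor for Cd24, was 2.31-fold higher in beta-catenin than in control cells (adjusted p = 9.22e-07). Has2, a hyaluronan synthase that makes the ligand of Cd44, was 1.85-fold higher in beta-catenin than in control cells (adjusted p = 0.00460). The Siglecg probe set did not pass in ICAT against control cells (difference -0.19, adjusted p = 0.128). The brightest Has2 probe set did not pass there either (difference -0.44, adjusted p = 0.119), while a second one, 1418678_at, was called lower (difference -0.66, adjusted p = 0.0327). Without ICAT replicate 1 the list's calls in ICAT against control cells numbered 8 of 14 and not 5. Calls over all probe sets in that comparison also moved, over 8310 to 11399 with 1 replicate left out.

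Of 22 tested genes on a list of other stem and tumour-initiating cell markers, 3 rose and 6 fell in beta-catenin against control cells (median difference -0.11), beside 33.1 percent of all genes called. In ICAT against control cells 5 rose and 3 fell (median 0.03), a share near the 35.3 percent of all genes called. The summed level of 24 genes ranged over 13.64 to 13.69 in beta-catenin arrays, 14.28 to 14.46 in ICAT arrays and 14.40 to 14.46 in control arrays. Such a sum is led by the brightest genes, in control cells Cd34 and Cd9, and does not describe the list as a whole. Cd34, a sialomucin of blood and vessel progenitors, averaged 10.62 ± 0.105 in beta-catenin cells, 12.14 ± 0.184 in ICAT cells and 12.56 ± 0.0319 in control cells, a 3.85-fold fall in beta-catenin cells (adjusted p = 3.97e-08) and a 1.34-fold fall in ICAT cells (adjusted p = 0.00444). Itga6, the laminin-binding integrin alpha 6 chain, was 3.70-fold below control in beta-catenin cells (adjusted p = 1.67e-08) and 1.29-fold below it in ICAT cells (adjusted p = 0.00409). Its second probe set, 1422444_at, was called lower in beta-catenin cells but not called in ICAT cells (difference -0.29, adjusted p = 0.119). Sox2, a pluripotency transcription factor, averaged 9.18 ± 0.0372 in beta-catenin cells, 10.38 ± 0.208 in ICAT cells and 10.30 ± 0.0455 in control cells, a 2.17-fold fall in beta-catenin cells (adjusted p = 3.32e-06). Lrig1, a membrane inhibitor of growth factor receptors that marks epithelial stem cells, averaged 8.60 ± 0.134 in beta-catenin cells, 10.51 ± 0.0572 in ICAT cells and 10.20 ± 0.0270 in control cells, 3.03-fold below control for the first (adjusted p = 3.97e-08) and 1.24-fold above it for the second (adjusted p = 0.00940). Of 2 other Lrig1 probe sets, 1449893_a_at was called lower in beta-catenin cells too but was not called in ICAT cells against control (difference 0.21, adjusted p = 0.229), and 1419928_at was not called. Lgr5, the Wnt target that marks intestinal stem cells, averaged 5.87 in beta-catenin cells, 5.96 in ICAT cells and 6.0 in control cells (adjusted p = 0.213 and 0.739 against control).

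Of 18 tested genes of aldehyde dehydrogenases and retinoic acid handling, 5 rose and 3 fell in beta-catenin against control cells (median 0.01), where 33.1 percent of all genes were called. Among the same genes 11 rose and 2 fell in ICAT against control cells (median 0.28), against 35.3 percent of all genes called. Crabp1, a cellular retinoic acid-binding protein, averaged 6.53 ± 0.133 in beta-catenin cells, 9.69 ± 0.146 in ICAT cells and 6.71 ± 0.0893 in control cells (SD, n = 3 each), a 7.87-fold rise in ICAT cells (adjusted p = 1.0e-08). Crabp2, its paralogue, averaged 6.16 ± 0.305 in beta-catenin cells, 8.66 ± 0.169 in ICAT cells and 7.05 ± 0.0260 in control cells, 1.86-fold below control for the first (adjusted p = 3.14e-04) and 3.05-fold above it for the second (adjusted p = 6.39e-06). Aldh1l2, a mitochondrial folate enzyme, rose 2.60-fold in ICAT cells (adjusted p = 0.00497), with an SD of 0.834 over their 3 arrays. Aldh7a1, which oxidises an aldehyde of lysine breakdown, was 1.97-fold above control in beta-catenin cells (adjusted p = 3.98e-06) and 1.51-fold above it in ICAT cells (adjusted p = 2.46e-04), though a second Aldh7a1 probe set was not called. The 13 calls in ICAT cells became 8 without control replicate 1, 7 without control replicate 3 and 6 without ICAT replicate 2, and the 8 calls in beta-catenin cells became 5 without control or beta-catenin replicate 3 and 13 with array weights. Calls over all probe sets moved as well. With 1 replicate left out they ranged over 8310 to 11399 in ICAT and 7885 to 11570 in beta-catenin against control cells. With array weights they numbered 15412 of 33545 in beta-catenin against control cells.

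Among relatives of Abcg2 on a list of ABC efflux transporters, 2 of 11 tested rose and 1 fell in beta-catenin against control cells, and 3 rose and 3 fell in ICAT against control cells. The first share is near the 33.1 percent of all genes called there, and the second is above the 35.3 percent called there. Abcc1, a multidrug resistance pump, was 1.69-fold lower in beta-catenin cells (adjusted p = 6.76e-06) and 1.29-fold lower in ICAT cells (adjusted p = 0.00187). Abcc4, which exports cyclic nucleotides and drugs, averaged 8.51 ± 0.115 in beta-catenin cells, 7.26 ± 0.152 in ICAT cells and 8.52 ± 0.110 in control cells, a 2.39-fold fall in ICAT cells (adjusted p = 3.45e-06). Abca1, the cholesterol exporter, rose 2.65-fold in ICAT cells (adjusted p = 3.29e-05), though its second probe set missed the threshold (adjusted p = 0.0673). Abcc3, an exporter of organic anions, was 1.68-fold above control in beta-catenin cells (adjusted p = 0.00152) and 1.32-fold above it in ICAT cells (adjusted p = 0.0464, a call lost in most alternatives, each control replicate left out among them).

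**Figure D4:**
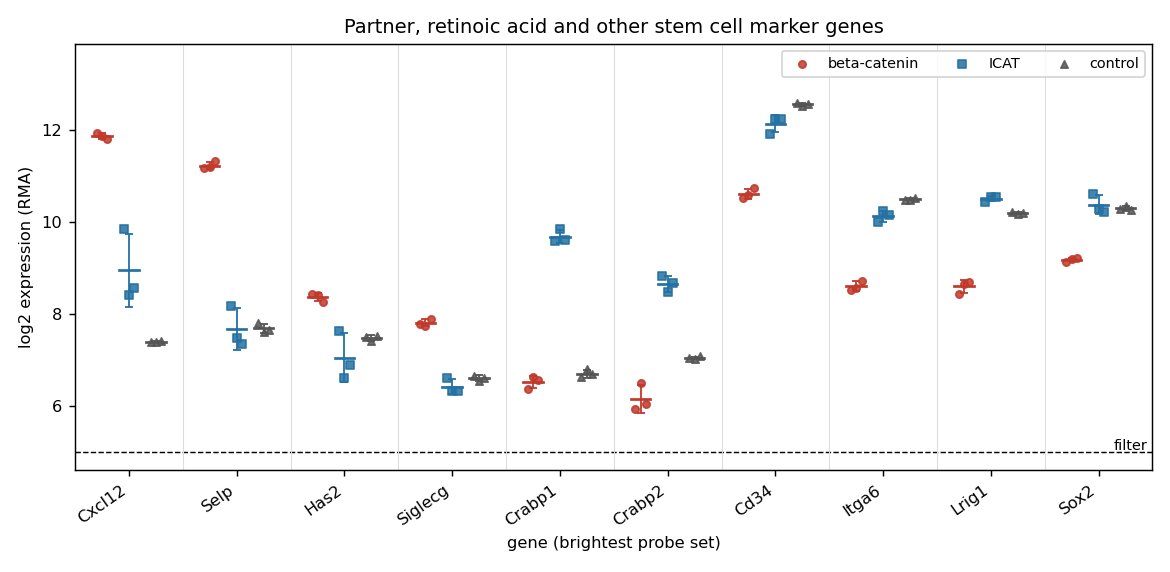
Log2 expression of 10 genes named from the partner, retinoic acid and other stem cell marker lists on each array, with points for arrays, lines for group means, bars for the SD (n = 3), and beta-catenin, ICAT and control cells in that order; the dashed line is the limit of 5. Cxcl12 and Selp were highest in beta-catenin cells, at means of 11.87 and 11.23, Crabp1 and Crabp2 in ICAT cells, and Cd34 and Itga6 in control cells.

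Markers of other cell types were followed as well, and the lists differed in how many of their genes were called. Of 10 tested fibroblast markers, 3 rose and 2 fell in beta-catenin against control cells, and 8 rose and 0 fell in ICAT against control cells, where 33.1 and 35.3 percent of all genes were called (limma; 0 lower at an unadjusted p under 0.05). Their summed level over 12 genes ranged over 14.82 to 14.88 in beta-catenin arrays, 15.51 to 15.54 in ICAT arrays and 14.94 to 14.96 in control arrays. S100a4 was the brightest gene of the sum, at 14.25 in beta-catenin cells, 14.35 in ICAT cells and 14.18 in control cells on average. Its difference of ICAT from control cells was smaller than that of the sum. Pdgfra, the platelet-derived growth factor receptor alpha chain, was 4.11-fold above control in beta-catenin cells (adjusted p = 2.61e-05) and 4.04-fold above it in ICAT cells (adjusted p = 4.56e-05), though 1 of its other probe sets was not called in ICAT cells. Col1a1, a chain of type I collagen, was 2.20-fold above control in the beta-catenin group (adjusted p = 0.00162) and 3.63-fold above it in the ICAT group (adjusted p = 6.16e-05). Col1a2, the other chain, averaged 10.78 ± 0.159 in beta-catenin cells, 13.62 ± 0.122 in ICAT cells and 12.17 ± 0.0318 in control cells, 2.63-fold below control (adjusted p = 4.29e-07) and 2.73-fold above it (adjusted p = 1.04e-06) for the transfected groups in that order, though 1 of its dimmer probe sets, 1446326_at, was not called in ICAT cells (adjusted p = 0.0677). Postn, encoding the matrix protein periostin, rose 3.87-fold in ICAT cells (adjusted p = 1.88e-05).

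Of 9 tested epithelial and ductal markers, 0 were called in beta-catenin against control cells (limma; 1 higher at an unadjusted p under 0.05), where 33.1 percent of all genes were called. In ICAT against control cells 4 of the 9 rose and 0 fell, beside 35.3 percent of all genes called, 17.9 percent higher. They were Krt18 by 2.43-fold, Krt8 by 1.85-fold, Sox9 by 1.45-fold and Krt19 by 1.21-fold, the last a call lost when any 1 control array was left out. Of the other Sox9 probe sets, 1424950_at was called too (difference 0.27, adjusted p = 0.0109) and 1433889_at was not (difference 0.16, adjusted p = 0.0940). Cdh1, the epithelial cadherin, stayed at 3.56 or lower on all arrays, so this defining epithelial marker had no level above the limit. Epcam, another epithelial adhesion protein, averaged 7.50 in beta-catenin cells, 7.52 in ICAT cells and 7.48 in control cells. The suffix of this Epcam probe set, x_at, marks probes that may also bind other transcripts, so its level need not be that of Epcam alone. The other Epcam probe set is not described here. Of 8 tested immune and endothelial markers, only Cd68 was called in beta-catenin against control cells, 1.47-fold lower. None was called in ICAT against control cells (limma; 0 at an unadjusted p under 0.05). Over all genes 33.1 and 35.3 percent were called in these comparisons. Ptprc, the pan-leukocyte marker, and Cdh5, the endothelial cadherin, stayed under 5 on all arrays. The part of these cell type markers in the differences above was not tested, and on whole-culture RNA fewer cells of a type and less RNA per cell cannot be told apart.

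As for the arrays themselves, medians lay between 6.21 and 6.29, and the lowest correlation between arrays of a group was 0.997 in beta-catenin, 0.994 in ICAT and 0.998 in control cells. The median SD of a probe set was 0.0816 in beta-catenin cells, 0.122 in ICAT cells and 0.0662 in control cells. Ctnnb1, encoding beta-catenin, averaged 12.88 ± 0.0146 in beta-catenin cells, 12.88 ± 0.107 in ICAT cells and 12.68 ± 0.0136 in control cells (adjusted p = 0.0490 and 0.0505 against control). A second Ctnnb1 probe set, 1450008_a_at, differed from control by 0.18 in beta-catenin cells (adjusted p = 0.0520) and by 0.25 in ICAT cells (adjusted p = 0.0108), and the remaining one was not called in either. Ctnnbip1, encoding ICAT, averaged 8.78 ± 0.0545 in beta-catenin cells, 8.79 ± 0.151 in ICAT cells and 8.64 ± 0.0266 in control cells (adjusted p = 0.237 and 0.219). The probe sets for both genes may lie outside the transfected sequence, which was not given in the sources used here, so these values do not check the labels.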

How the data were processed

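The deposited table holds log2 expression values, 1 per probe set and array, which the authors made with RMA (affy), as listed per the submitters' processing notes. No version of these tools is given in the sources used here. RMA corrects background, makes the array distributions alike and summarises probes, which compresses differences of dim probe sets. RNA was extracted with Trizol and labelled with biotin by a kit that primes at the 3′ end, per the labels' protocols. The table has no detection calls, so the limit of 5 is a chosen one. Gene symbols came from the platform annotation, in which 34945 probe sets have 1 symbol, 932 several and 9160 none. List genes were named after an update through Entrez identifiers, and a gene outside the markers is represented by its brightest single-gene probe set. Named list genes are those called with the 4 largest differences from control in each list. Values given for Dcx, Dclk2, Pou2f3, Trpm5, Lgr5, Epcam, Cdh1, Ptprc and Cdh5 were chosen outside that rule, after values were seen.

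Probe sets at 5 or more on at least 3 of the 9 arrays, 33545 in all, were fitted with 1 mean per group over all arrays in limma 3.58.1 under R 4.3.3 (degrees of freedom of 6 residual and 5.32 prior). The tests were two-sided, with Benjamini-Hochberg adjustment over all tested probe sets in each comparison and a call at an adjusted p under 0.05. For genes called in the lists the same fit was used. With 3 arrays a group the number of arrays limits the precision, and an exact permutation test cannot go below p = 0.1. The code was tested on simulated data. Promoter sequences and coordinates are from RefSeq, GRCm38.p6. The markers, lists and tests were chosen with earlier results of these data known. Alternatives were no filter, a filter at 7, 1 probe set per gene, an intensity trend, array weights, the 6 compared arrays alone, a common array median, a replicate block and each replicate left out. The last alternatives for list genes were added after seeing the data.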

Additional observations from a re-analysis of the deposited data

How the results depend on the processing

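Of 146 single differences for the markers, the list genes and the genes most like Dclk1, 123 kept their direction and their side of the threshold under every alternative. The number of called marker probe sets, 21 for beta-catenin against control, 15 for ICAT against control and 18 for beta-catenin against ICAT, ranged over 21 to 21, 14 to 15 and 16 to 19 with 1 replicate left out. With 1 probe set per gene the marker calls were 6, 4 and 6, and the calls over all were 5321, 5670 and 6155. Array weights raised the calls over all probe sets in beta-catenin against control to 15412. Leaving out replicates gave 7885 to 11570, 8310 to 11399 and 9564 to 13034 calls over all. Arrays with the same number had deviations that correlated at -0.115 to 0.370, and not every pair passed 0.1, so the numbers were not used to pair arrays in the reported fit. The replicate block gave 21, 15 and 19 marker calls and 10405, 10981 and 12124 calls over all.

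Differences that changed sign were small, 0.0727 at most, and none was called in the reported fit. With array weights Prom1 in beta-catenin against control cells gave -0.0345, and Aldh1a3 1427395_a_at gave 0.0116 in beta-catenin and 0.0408 in ICAT against control cells. With the arrays shifted to a common median Dclk1 1423125_at gave -0.0125 in ICAT against control cells. With 1 replicate left out, Dclk1 1423125_at ranged over -0.0873 to 0.0352 in beta-catenin against control, -0.0727 to 0.135 in ICAT against control and -0.176 to 0.0342 in beta-catenin against ICAT cells, and Dclk1 1446190_at over -0.0718 to 0.245 in ICAT against control cells. Prom1 ranged over -0.0324 to 0.107 in beta-catenin and -0.101 to 0.000149 in ICAT against control cells. Aldh1a3 1427395_a_at ranged over -0.157 to 0.0486 in beta-catenin against control, -0.126 to 0.0493 in ICAT against control and -0.138 to 0.0675 in beta-catenin against ICAT cells, and 1417642_at over -0.0133 to 0.183 in beta-catenin against control cells. Abcg2 ranged over -0.0428 to 0.149 in ICAT against control cells. The cause was not tested.

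Counts over the lists moved too. In beta-catenin against control cells the calls among 14 tested ligands and partners were 9 with array weights and 8 with the 6 arrays alone. Those among 18 tested aldehyde dehydrogenase and retinoic acid genes were 13 with array weights. Those among 9 tested epithelial and ductal markers were 3 with array weights and 2 with the 6 arrays alone or without ICAT replicate 1. Array weights also raised the calls over all in this comparison, from 9947 to 15412 of 33545 probe sets, so the list counts rose along with those over all.

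Some single calls moved as well. Col1a1 was no longer called in beta-catenin against ICAT cells without beta-catenin replicate 3, ICAT replicate 2 or ICAT replicate 3 (adjusted p = 0.0867, 0.0781 and 0.0743). Alcam 1443086_at was no longer called in ICAT against control cells without ICAT replicate 2 (adjusted p = 0.0655), nor Dclk1 1446190_at in beta-catenin against ICAT cells without beta-catenin replicate 2 (adjusted p = 0.0573). Dclk1 1435940_at became called in ICAT against control cells without ICAT replicate 3 (adjusted p = 0.0174), and Cd44 1423760_at with an intensity trend (adjusted p = 0.0361). The ICAT and control arrays of that Dclk1 probe set all lay under 5. Cd24a 1437502_x_at became called in beta-catenin against ICAT cells with the replicate block (adjusted p = 0.0210). Values under 5 have no sure order, which limits what can be said of Aldh1a1, Cxcr4 and the dimmest Dclk1 probe sets.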
